A study of Mus musculus with 12 samples.

Results

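The genes described here encode the parts of G protein and cyclic AMP (cAMP) signalling: regulators of G protein signalling (RGS), the alpha, beta and gamma subunits of heterotrimeric G proteins, adenylyl cyclases, cyclic nucleotide phosphodiesterases and the subunits of protein kinase A (PKA). They were chosen by gene symbol, with earlier results of these data known. All array genes were taken whose symbol begins with Rgs, Gna, Gnb, Gng, Adcy, Pde or Prka plus a family member's letter or digit. Gnas itself was left out. The symbols took 98 of the 19057 named genes, carried on 200 of 45281 probes. A probe was regarded as measured when 4 or more of the 12 arrays gave it a detection p-value below 0.05, which held for 93 of these probes and 67 of these genes (18626 probes and 10802 named genes over the array). The symbol pattern also takes in Prkaa1 and Prkaa2, the catalytic subunits of AMP-activated kinase (AMPK), the mitochondrial RNA phosphodiesterase gene Pde12, the centrosomal anchor gene Pde4dip (myomegalin) and the antisense transcript Gnasas1, none of which makes, breaks or senses cAMP as its best known task.

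Whole pituitaries of c57BL6/J mice were compared on Illumina MouseWG-6 v2.0 bead arrays, 1 animal to an array. The pregnant group comprised 8 dams, mated with studs of the same strain and killed in late gestation (e15.5), and the non-pregnant group comprised 4 virgin females. Females of both groups were 8 weeks old when allocated, and were wild-type animals drawn from several litters, but no source used here ties an animal to its litter. The whole gland holds the hormone cells of the anterior lobe, the intermediate lobe and the posterior lobe with vessels and blood, so that fewer cells of a type and less RNA per cell cannot be told apart in any value below.

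A receptor of the pituitary cell surface acts through a G protein, whose alpha subunit exchanges GDP for GTP and parts from the beta and gamma subunits. Stimulatory alpha subunits switch on adenylyl cyclase, as the receptor for growth hormone-releasing hormone does in somatotrophs, inhibitory ones restrain it, as the dopamine receptor of lactotrophs does, and those of the Gq class act through phospholipase C, as the gonadotrophin-releasing hormone receptor does in gonadotrophs. RGS proteins end the signal by speeding the hydrolysis of GTP by alpha subunits, phosphodiesterases end it by breaking down cAMP, and PKA, a complex of regulatory and catalytic subunits, carries it to its substrates.

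Of the 67 measured genes, Rgs16 and Rgs2 were the only ones to pass the test, and both were lower in the pregnant dam. This share (2.99%) was close to that over the array, where 3.07% of 10802 measured genes were called. The promoters of Rgs16 and Rgs2 are shown because these are the genes called. Both lie on chromosome 1, Rgs2 on the minus strand (window chr1:144004100-144004399, G and C at 70.0% of bases) and Rgs16 on the plus strand (window chr1:153740103-153740402, 66.0%). Each window runs 5′ to 3′ on the strand of the gene, from 250 bases before to 50 bases after the annotated start (RefSeq, GRCm38.p6), and capitals mark the matches of the motifs described after them.
Rgs2: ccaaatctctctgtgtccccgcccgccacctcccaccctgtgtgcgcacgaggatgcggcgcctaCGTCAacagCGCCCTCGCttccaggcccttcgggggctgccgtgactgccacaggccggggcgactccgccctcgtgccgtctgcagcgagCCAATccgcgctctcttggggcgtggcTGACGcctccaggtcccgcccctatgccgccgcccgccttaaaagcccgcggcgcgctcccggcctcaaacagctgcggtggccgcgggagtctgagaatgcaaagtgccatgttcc
Rgs16: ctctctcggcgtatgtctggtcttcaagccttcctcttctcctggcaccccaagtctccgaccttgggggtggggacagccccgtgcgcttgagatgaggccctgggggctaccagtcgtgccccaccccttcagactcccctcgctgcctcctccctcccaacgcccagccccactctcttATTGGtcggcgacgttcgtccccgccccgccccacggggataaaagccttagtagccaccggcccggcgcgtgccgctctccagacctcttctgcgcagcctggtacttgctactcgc

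Motifs were sought on both strands by their letters. The Rgs2 window held TGACG, the first part of the cAMP response element, at 185 (minus strand) and 67 (plus strand) bases upstream of the start, the EGR motif GCGNGGGCG at 176 (minus strand) and CCAAT at 94 (plus strand). The Rgs16 window held CCAAT alone, at 68 bases upstream on the minus strand. The whole cAMP response element, TGACGTCA, which contains TGACG, and the AP-1 motif TGANTCA were in neither. Promoter windows were at hand for 74 of the 98 genes. TGACG was found for 25 of them (33.8%) and for 23.05% of all 27025 genes with a window, the EGR motif for 16 (21.6%) and 6.27%, the AP-1 motif for 9 (12.2%) and 8.97%, CCAAT for 31 (41.9%) and 41.1%, and TGACGTCA for 1 (1.35%) and 2.03%. These matches are a description of letters only.

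Before the members are taken in turn, some facts of the arrays bear on them. Between 17217 and 18572 probes were detected on an array, and of the 93 measured probes of these genes 87 to 91 were detected on each array of either group. The hormone genes that define the gland (Prl, Gh, Pomc, Tshb and Lhb) were all measured, while none of the 5 photoreceptor and pineal markers on the array was. Non-pregnant replicate 4 stood apart from its group. On the first principal component it lay at -0.25, against 21.3 to 32.8 for the other non-pregnant arrays. The pregnant arrays ran from -20.6 to 7.29 on that component, with pregnant replicate 1 the highest. The closest array to non-pregnant replicate 4 was a pregnant one, so values without it are given wherever they differ in call. Where the array left out held a value against the difference, the p-value of that fit is no separate test. Groups were compared with limma (two-sided, p-values adjusted over the 18626 probes by the Benjamini-Hochberg method), and a gene was called when a probe had an adjusted p under 0.05 and a log2 difference of at least 0.32 in size, the fold limit of the study's methods.

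**Figure D1:**
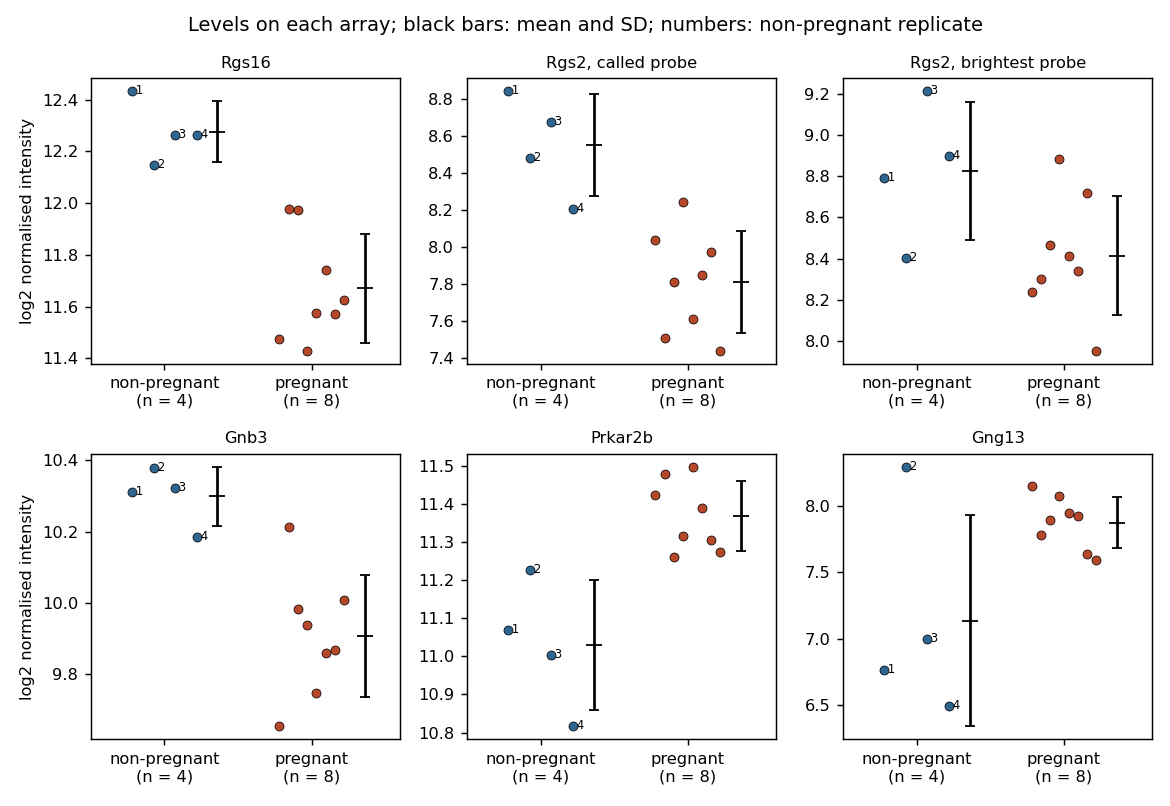
Level of each array (log2 normalised intensity, vertical axis, a separate scale in each panel) for 6 probes, with non-pregnant arrays in blue, pregnant arrays in red and the mean with SD in black. The 8 pregnant arrays lie below the 4 non-pregnant arrays for Rgs16 and above them for Prkar2b, and non-pregnant replicate 2 sits alone at 8.29 for Gng13.

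Rgs16 encodes a small RGS protein that acts on alpha subunits of the Gi and Gq classes. Its probe read 12.43, 12.15, 12.26 and 12.26 (log2 normalised intensity) in non-pregnant replicates 1 to 4, and ran from 11.43 through a median of 11.60 to 11.98 in the 8 pregnant dams. Every pregnant array was thus below every non-pregnant array. The mean level was 11.67 ± 0.21 (SD, n = 8) in dams and 12.28 ± 0.12 (SD, n = 4) in virgin females, a 1.52-fold fall (log2 difference of -0.61 ± 0.12, SE, adjusted p = 0.0146). The call held in each of 10 fits that left out 1 array, and ended without non-pregnant replicate 1 (adjusted p = 0.0666) or 3 (adjusted p = 0.0577), with a log2 difference of -0.55 and -0.61.

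Rgs2 encodes an RGS protein that acts chiefly on Gq, and in rat brain it is known as a gene that neuronal activity induces. It was measured by 2 probes. The one called read 8.84, 8.48, 8.68 and 8.20 in non-pregnant replicates 1 to 4 and ran from 7.44 through 7.83 to 8.24 in pregnant dams. The groups overlapped at a single point, where pregnant replicate 4 lay just above non-pregnant replicate 4. Rgs2 thus fell 1.67-fold by this probe (log2 difference of -0.74 ± 0.16, adjusted p = 0.0213), and the call ended without non-pregnant replicate 1 (-0.65, adjusted p = 0.092) or 3 (-0.70, adjusted p = 0.0917). The brighter probe of Rgs2 read 8.79, 8.40, 9.21 and 8.90 in non-pregnant females and ran from 7.95 through 8.38 to 8.88 in pregnant dams. It also lay lower, but did not pass the test (-0.41 ± 0.17, adjusted p = 0.222). With the probes of each gene averaged, Rgs2 was at -0.58 (adjusted p = 0.0473).

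The 2 calls amount to 2.99% of the 67 measured genes, beside 3.07% of the 10802 measured genes of the array called in either direction. For falls alone the share over the array was 1.56%, and for rises, of which there were 0 here, it was 1.51%. At an unadjusted p under 0.05, 25 of the 93 probes passed (26.9%), 15 lower and 10 higher, beside 17% of all probes tested (8.68% lower and 8.28% higher). The probes of these genes whose groups did not overlap numbered 5 (5.38%), beside 2.95% of all probes. Of them 3 lay lower in pregnancy, those of Rgs16, Gnb5 and Pde6d (1.43% of all probes did so), and 2 higher, those of Prkar2b and Gng12 (1.51%). The sizes of the differences were centred like those of the array, with a median log2 difference of -0.013 over the 67 genes and -0.0052 over all genes. In absolute size the median was 0.18, against 0.13 over all genes, and 20 of the 67 genes (29.9%) lay past that fold limit in either direction, against 14.2% of all genes. The SD within groups had a median of 0.23 for these genes and 0.21 for all genes.

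**Figure D2:**
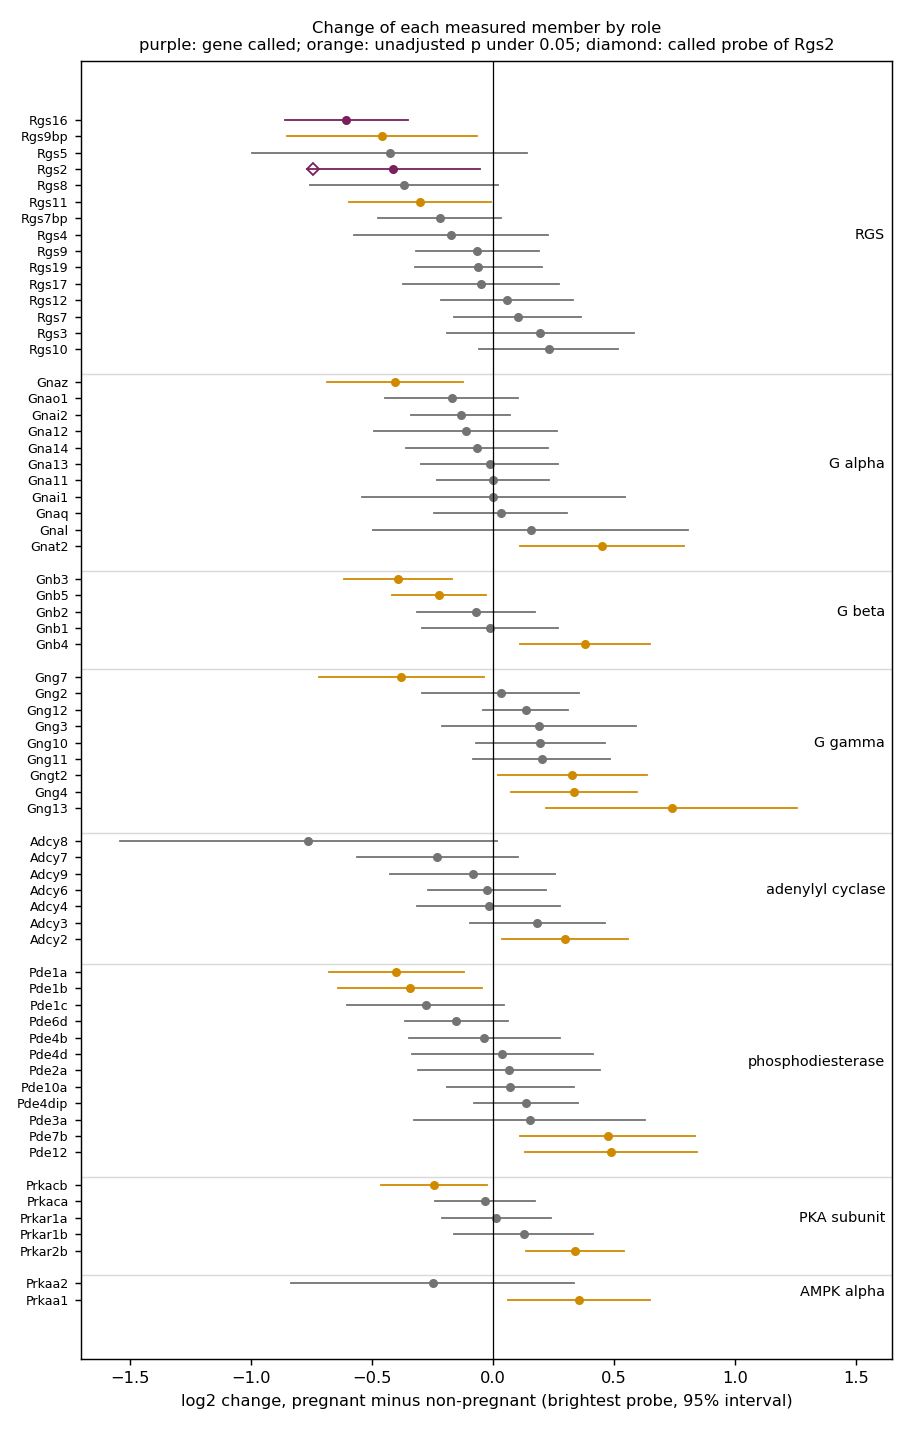
Log2 difference, pregnant minus non-pregnant, of each measured gene by its brightest probe (point, with its 95% confidence interval), grouped by role, with the called probe of Rgs2 as an open diamond and Gnasas1 left out. Of the RGS genes 11 of 15 lie left of 0, and of the G gamma genes 8 of 9 lie right of 0, while the intervals of most genes cross 0.

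Most of the activity-induced genes were also lower in the pregnant group. Of the 8 of them measured (Fos, Fosb, Junb, Egr1, Egr4, Npas4, Arc and Btg2; Nr4a1 and Ier2 were not measured), 7 fell and 0 rose, and their summed level (log2 of the sum over genes) was 13.06 to 15.06 in pregnant and 14.50 to 16.39 in non-pregnant females. Genes of high signal weigh most in this sum, here Egr1 (non-pregnant mean 14.57), Fos (12.81) and Junb (12.81). Fos was not called (adjusted p = 0.309). The summed level was 14.50 in non-pregnant replicate 4, lower than in the other 3 non-pregnant arrays. In pregnant replicate 5 it was 15.06, the highest of the pregnant arrays. Non-pregnant replicate 4 also had the lowest non-pregnant level at the called probe of Rgs2 (8.20, inside the pregnant range), whereas its Rgs16 level of 12.26 was above every pregnant array. Pregnant replicate 5 had an Rgs16 level of 11.57 and a level of 7.61 at the called probe of Rgs2, both among the pregnant values. Of the 4 gonadotroph markers, Lhb fell (-0.91) and the other 3 were not called, with Fshb at 1.61 (adjusted p = 0.0945), Gnrhr at -0.32 and Nr5a1 at 0.062. The marker genes thus did not lie on one side of 0, and they had a summed level of 12.42 to 12.85 against 12.85 to 13.03. The somatotroph list had a summed level of 15.09 to 15.39 in pregnant and 15.41 to 15.60 in non-pregnant females, with 0 called. Gh (non-pregnant mean 15.46) weighs most in this sum and lay at -0.28, while Ghrhr lay at 0.34 and Ghsr at 0.49. The summed levels of the lactotroph, thyrotroph and corticotroph lists overlapped between groups, with 0 called. The stem cell markers Sox9 and Sox2 lay at -0.41 and -0.37, and neither was called. The part of these genes in the results for Rgs16 and Rgs2 was not tested.

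**Figure D3:**
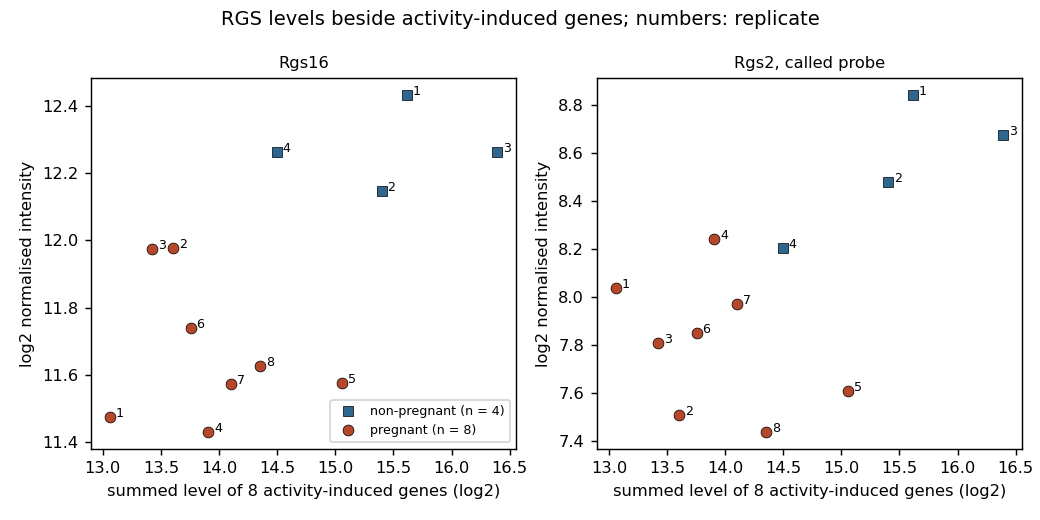
Level of Rgs16 (left) and of the called probe of Rgs2 (right) on each array (log2 normalised intensity, vertical axis) against the summed level of 8 activity-induced genes (log2, horizontal axis), with the replicate number beside each point. Rgs16 in pregnant dams is below 12 at every summed level between 13.06 and 15.06, and non-pregnant replicate 4, at a summed level of 14.50, has an Rgs16 level of 12.26, above all pregnant arrays, and a level of 8.20 at the Rgs2 probe, the lowest of the non-pregnant arrays.

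Of the 21 RGS genes on the array (with the anchor genes Rgs7bp and Rgs9bp), 15 were measured. Beyond the 2 called, 0 passed the test. By the brightest probe 11 of the 15 had a difference below 0 and 4 above, with a median of -0.17 and a range of -0.61 to 0.23. Rgs9bp, whose product ties the RGS9 protein to the membrane in photoreceptors, read 7.75, 7.33, 7.59 and 6.75 in non-pregnant females and 6.51, 6.95 and 7.27 (lowest, median, highest) in pregnant dams. Replicate 4 alone of the non-pregnant arrays lay inside the pregnant range, and the difference of -0.46 ± 0.18 (adjusted p = 0.218) became -0.66 without it (adjusted p = 0.0361). Rgs8, a further small RGS gene, read 8.95, 9.08, 9.06 and 7.94 against 8.10, 8.37 and 8.63 (-0.37, adjusted p = 0.323). Replicate 4 lay below every pregnant array and the other 3 above, and without replicate 4 Rgs8 was called lower (-0.64, adjusted p = 0.00801). For Rgs9bp and Rgs8 the array left out held the value that ran against the difference, so these p-values are no separate test.

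The RGS proteins of the R7 class work as pairs with the atypical beta subunit encoded by Gnb5. Rgs7 and Rgs9 of that class were measured, with differences of 0.10 and -0.064, and Rgs11 lay at -0.30 (adjusted p = 0.276). Gnb5 itself read 10.88, 10.98, 10.90 and 10.94 in non-pregnant females and 10.46, 10.71 and 10.85 in pregnant dams. The groups did not overlap, although the difference was small and not called (-0.22 ± 0.091, adjusted p = 0.227), and the second Gnb5 probe lay at -0.027. Rgs7bp, the anchor of these pairs in neurons, was at -0.22 by one probe and 0.0073 by the other.

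Of the measured RGS genes 6 are on chromosome 1, as are 10 of the RGS genes on the array. In the order of the chromosome the measured ones are Rgs2, Rgs8, Rgs16, Rgs5, Rgs4 and Rgs7, and their brightest probes lay at -0.41, -0.37, -0.61, -0.43, -0.17 and 0.10. Rgs16 and the called probe of Rgs2 are the only calls among them. Rgs5, a marker of pericytes, varied widely among pregnant dams (6.35 to 7.90, against 7.34 to 8.15; adjusted p = 0.446). Of 7 measured genes of the list of pericytes and smooth muscle 0 were called, and their summed level was 9.86 to 10.56 in pregnant and 9.97 to 10.66 in non-pregnant females. Rgs20, Rgs13, Rgs1 and Rgs18 of the same chromosome were not measured.

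Of the 15 genes of alpha subunits (Gnas not among them), 11 were measured, 0 were called, and the differences ran from -0.40 to 0.45 around a median of -0.013. Gnai2, of the inhibitory class that dopamine receptors use, had the highest signal and differed little: it read 12.60, 12.88, 12.73 and 12.67 in non-pregnant females and 12.37, 12.64 and 12.73 in pregnant dams (-0.13 ± 0.10, 95% interval -0.34 to 0.072, adjusted p = 0.516). Gnaz encodes an inhibitory alpha subunit that pertussis toxin does not reach. It read 11.43, 11.02, 11.32 and 10.76 in non-pregnant females and 10.46, 10.72 and 11.03 in pregnant dams. Non-pregnant replicates 2 and 4 lay inside the pregnant range, and the difference of -0.40 ± 0.13 (adjusted p = 0.125) became -0.53 without replicate 4 (adjusted p = 0.0291). Gnat2, the alpha subunit of cone transducin, read 7.07, 8.06, 7.63 and 8.05 against 7.97, 8.15 and 8.40. The groups overlapped at replicates 2 and 4, and the difference was not called (0.45 ± 0.16, adjusted p = 0.156). Gnaq and Gna11, alpha subunits of the Gq class, were at 0.032 and 0.0014 by their brightest probes, and Gna14 of the same class was at -0.065.

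Of the 6 beta subunit symbols 5 were measured, with a median of -0.070. Gnb3, which cones and taste cells use, came closest to a call. It read 10.31, 10.38, 10.32 and 10.18 in non-pregnant females and 9.65, 9.90 and 10.21 in pregnant dams, and 7 of the 8 pregnant arrays were below all non-pregnant ones. The difference was -0.39 ± 0.10 (1.31-fold, adjusted p = 0.0649), and it was called without pregnant replicate 2 (-0.43, adjusted p = 0.0345) or non-pregnant replicate 4 (-0.43, adjusted p = 0.0414). Gnb4 lay the other way, at 6.23, 6.89, 6.67 and 6.37 in non-pregnant females and 6.70, 6.91 and 7.22 in pregnant dams (0.38 ± 0.13, adjusted p = 0.131). Its second, dimmer probe was at 0.12. Gnb2, the beta subunit of highest signal, was at -0.070 ± 0.11 (95% interval -0.32 to 0.17, adjusted p = 0.809), and Gnb1 at -0.011.

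Of the 12 gamma subunit genes 9 were measured. The differences of 8 of them were above 0 and that of 1, Gng7, below, with a median of 0.20, and 0 were called. Gng13, known from taste cells and bipolar cells of the retina, read 6.76, 8.29, 6.99 and 6.49 in non-pregnant females, and 7.59, 7.91 and 8.15 in pregnant dams. The level in replicate 2 exceeded every other array, while the other 3 non-pregnant arrays were below every pregnant one. The difference was 0.74 ± 0.24 (1.67-fold, adjusted p = 0.128), and without replicate 2 it became 1.12 (adjusted p = 0.00105). That fit leaves out the value that ran against the difference, so its p-value is no separate test. Gng4, a gamma subunit of neurons and endocrine cells, read 11.51, 11.47, 11.51 and 12.03 against 11.71, 11.99 and 12.17. Here replicate 4 was the one inside the pregnant range, and the difference of 0.34 ± 0.12 (adjusted p = 0.166) became 0.47 without it (adjusted p = 0.0237). Gng10, of highest signal in this class, was at 0.20 ± 0.13 by one probe (adjusted p = 0.457) and 0.22 by the other. Gngt2, the gamma subunit of cones, was at 0.33 (adjusted p = 0.261), and the 2 probes of Gng7 disagreed in sign (-0.38 and 0.10). Gng12 had groups that did not overlap, at 8.27 to 8.47 and 8.48 to 8.66, for a difference of 0.14 (adjusted p = 0.43).

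Among adenylyl cyclases, which make cAMP, 7 of 10 were measured and 0 were called. Adcy2, a form stimulated by beta and gamma subunits, read 9.47, 9.95, 9.73 and 9.35 in non-pregnant females and 9.63, 9.92 and 10.19 in pregnant dams. The groups overlapped, and the difference was 0.30 ± 0.12 (adjusted p = 0.227). Adcy6, a form inhibited by calcium and the one of highest signal here, was at -0.025 ± 0.11 (95% interval -0.27 to 0.22, adjusted p = 0.939). Adcy8, which calcium and calmodulin stimulate, had the lowest difference of all 67 genes, at -0.76 ± 0.37, but its non-pregnant arrays read 7.68, 5.57, 6.82 and 8.07 and its pregnant arrays 5.36 to 6.82 (adjusted p = 0.306). Adcy8 was detected on 7 of 8 pregnant and 3 of 4 non-pregnant arrays, and its lowest values were near background. The low value of non-pregnant replicate 2 lay near the pregnant minimum, and without that array Adcy8 was called lower (-1.25, adjusted p = 0.042). Here too the array left out held the value against the difference, so the p-value is no separate test. Adcy3, Adcy4, Adcy7 and Adcy9 lay between -0.23 and 0.18.

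The phosphodiesterase symbols were the largest class, with 25 genes on the array, 12 measured and 0 called (median 0.054, range -0.40 to 0.49). The calcium- and calmodulin-stimulated forms, Pde1a, Pde1b and Pde1c, lay below 0 at all of their 6 measured probes. Pde1a read 8.56, 8.33, 8.36 and 8.18 in non-pregnant females and 7.71, 7.89 and 8.37 in pregnant dams by its brightest probe (-0.40 ± 0.13, adjusted p = 0.125), and its other probes lay at -0.32 and -0.17. Pde1b read 10.56, 10.46, 10.40 and 9.96 against 9.61, 9.98 and 10.28 (-0.34 ± 0.14, adjusted p = 0.223), and its second probe lay at -0.38 (adjusted p = 0.106). The lowest non-pregnant array was exceeded by 2 pregnant arrays for Pde1a and by 4 for Pde1b. Without non-pregnant replicate 4, Pde1b was called lower by its second probe (-0.47, adjusted p = 0.0366). Pde1c was at -0.28 (adjusted p = 0.372).

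Pde7b, a form specific for cAMP, was close to background, detected on 6 of 8 pregnant and 1 of 4 non-pregnant arrays, so that it passed the detection filter mainly through the pregnant arrays. It read 5.57, 5.89, 5.59 and 5.72 against 5.62, 6.24 and 6.61 (0.47 ± 0.17, adjusted p = 0.161). Pde12 read 8.24, 7.53, 7.99 and 8.74 against 8.41, 8.62 and 8.83. Replicate 4 again lay inside the pregnant range and the other 3 below it, and the difference of 0.49 ± 0.17 (adjusted p = 0.141) became 0.69 without it (adjusted p = 0.0133). Pde6d, a carrier of prenylated proteins rather than an enzyme, was measured by 4 probes, all below 0 (-0.50 to -0.15). One of them had groups that did not overlap (10.93 to 11.13 against 10.56 to 10.83; -0.27, adjusted p = 0.129). Pde4dip, the gene of highest signal, was at 0.14 ± 0.10 (adjusted p = 0.524), and its 4 probes ran from -0.20 to 0.14. Pde4b and Pde4d, cAMP-specific forms, were at -0.035 and 0.040, and Pde10a, Pde2a and Pde3a between 0.068 and 0.15.

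Of the 6 PKA subunits 5 were measured. Prkar2b, the type II beta regulatory subunit, read 11.07, 11.23, 11.00 and 10.82 in non-pregnant females and 11.26, 11.35 and 11.50 in pregnant dams. Every pregnant array was above every non-pregnant one. The difference of 0.34 ± 0.10 (1.26-fold) was not called (adjusted p = 0.0755), and it stayed uncalled with any array left out (adjusted p from 0.0555 to 0.208). Prkacb, a catalytic subunit and the gene of highest signal in the class, read 14.03, 14.03, 14.13 and 13.73 against 13.54, 13.76 and 13.91 (-0.24 ± 0.10, adjusted p = 0.236). Prkaca, which also encodes a catalytic subunit, was at -0.033 and 0.046 by its probes, and the regulatory subunit Prkar1a at 0.014 and 0.089. Of the AMPK genes, Prkaa1 read 6.30, 5.67, 6.22 and 6.58 against 6.35, 6.57 and 6.69 (0.36 ± 0.14, adjusted p = 0.199), and without non-pregnant replicate 4 the difference was 0.48 (adjusted p = 0.0472). Prkaa1 was detected on all 8 pregnant and on 3 of 4 non-pregnant arrays. Prkaa2 was at -0.25 (adjusted p = 0.699).

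Markers of red cells moved with the condition, while 0 of 6 measured macrophage and leukocyte genes were called. Of 6 measured red cell genes 5 rose, and their summed level was 16.42 to 17.01 in pregnant and 15.02 to 15.37 in non-pregnant females. Of the platelet markers Pf4 and Itga2b were measured and 0 called, with a summed level of 6.96 to 7.92 against 6.55 to 7.40, and Gp9, Ppbp and Treml1 were not measured. Rgs18, an RGS gene of platelets, was detected on 0 arrays. The part of blood in the differences above 0, such as those of Prkar2b and Gng4, was not tested.

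**Figure D4:**
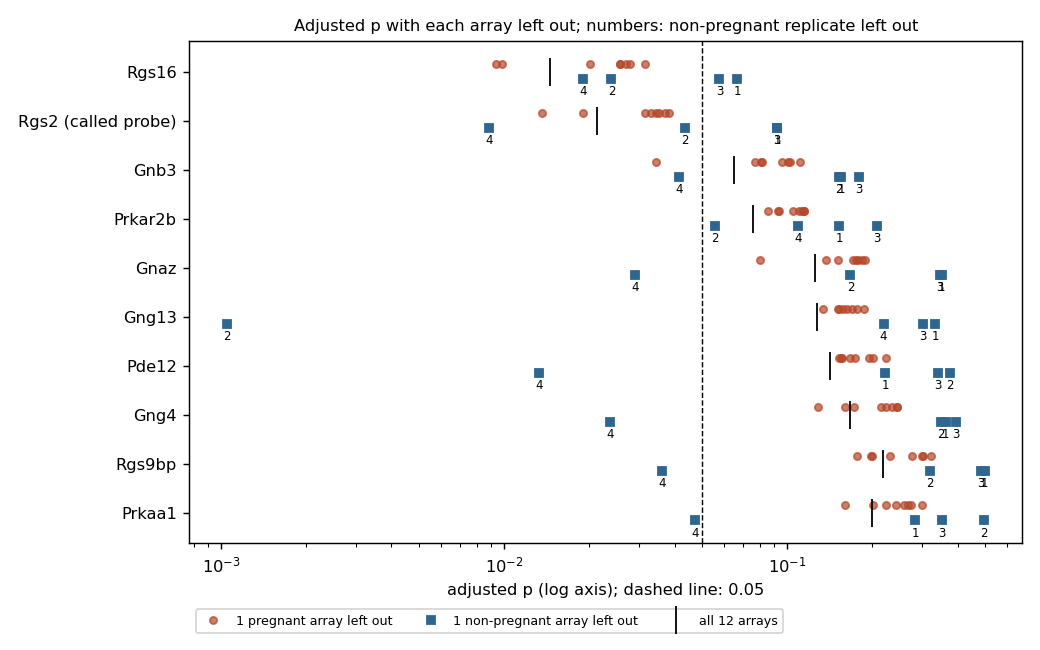
Adjusted p of 10 probes (log axis) with all 12 arrays (black bar) and with each array left out in turn (red points, a pregnant array; blue squares, a non-pregnant array with its replicate number), and the threshold of 0.05 dashed. Rgs16 and Rgs2 cross the threshold without non-pregnant replicate 1 or 3. Gnb3, Gnaz, Pde12, Gng4, Rgs9bp and Prkaa1 cross it the other way without non-pregnant replicate 4. Gnb3 does so without pregnant replicate 2 too, and Gng13 without non-pregnant replicate 2.

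The call count of the group thus turned on single non-pregnant arrays, and the fits without 1 array are no separate tests of these genes. Without non-pregnant replicate 4, 7 of the genes were called lower (Gnaz, Gnb3, Pde1b, Rgs16, Rgs2, Rgs8 and Rgs9bp) and 3 higher (Gng4, Pde12 and Prkaa1), while over the array 597 probes were called lower and 536 higher in place of 204 and 227. Without non-pregnant replicate 2, Rgs16, Rgs2 and Adcy8 were called lower and Gng13 higher, with 148 probes lower and 192 higher over the array. Without replicate 1 or 3 none of the genes was called, and the array as a whole gave 70 and 60 probes lower and 113 and 89 higher.

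Several genes had more than 1 measured probe, 21 in all. The probes of 15 of them had the same sign, and those of 6 (Gng7, Pde4dip, Prkaca, Rgs12, Rgs17 and Rgs7bp) did not. The other 46 rested on 1 probe.

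The 31 genes that were not measured comprised 6 RGS genes, 4 alpha subunits, the beta-like gene Gnb1l, 3 gamma subunits, 3 adenylyl cyclases, 13 phosphodiesterases and 1 PKA subunit. For 24 of them no probe was detected on any array, among them Gnai3, Prkar2a, Pde4a and Pde3b, and Pde6a, Pde6b, Pde6c, Pde6g and Pde6h, which encode the phosphodiesterase of rods and cones. The other 7 were detected on 1 to 3 arrays (Adcy1, Gna15, Gnat3, Gng5, Pde5a, Pde8b and Rgs1). A probe below detection gives only a bound, and an absent signal can also be that of a poor probe.

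The genes around this pathway were described from a list of receptor kinases and arrestins, G protein accessories, phospholipase C beta forms, PKA anchors and inhibitors, other cAMP effectors, and the CREB family. Of 49 on the array 33 were measured, 0 were called in either direction, and the median difference was -0.048. The nearest to a call was Sik1, a kinase gene that cAMP induces, which ran from 5.08 to 5.85 in pregnant and from 5.68 to 7.91 in non-pregnant females (-1.16 ± 0.31, adjusted p = 0.0628). Pkia, an inhibitor of PKA, was at -0.27 ± 0.088 (adjusted p = 0.13), the receptor kinase gene Grk6 at 0.36 ± 0.13 (adjusted p = 0.156), the cAMP response element binding protein gene Creb1 at -0.48 ± 0.20 (adjusted p = 0.238) and its relative Crem at 0.28 ± 0.30 (adjusted p = 0.689). The other cAMP effector genes measured, Rapgef3 and Popdc3, and the arrestin genes Arrb1 and Arrb2 lay between -0.12 and 0.25.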

How the data were processed

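Total RNA of each pituitary was labelled with biotin and hybridised to 1 array. The authors deposited a non-normalised table of signal intensity (linear scale) with a detection p-value for each probe and array, and a processed table, described in their methods as quantile-normalised and variance-stabilised with lumi (no version is stated), whose deposited values are on the linear intensity scale. Intensities were background-corrected with normexp in limma 3.58.1 (R 4.3.3; offset 16, with the negative controls derived from detection p-values), quantile-normalised and taken to log2. Groups were compared with lmFit and eBayes over the 18626 kept probes, without covariates, since litter was not known per animal. Symbols are those of the platform annotation (34885 probes with 1 gene, 18 with several, 10378 with none), and updating them by gene ID changed 0 member symbols. The probe of highest mean stands for a gene. Replicates are separate animals, and the number of arrays limits the precision. Same-numbered arrays of the groups were not treated as pairs.

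The members and lists were chosen with earlier results of these data known. Named genes are those called, the 16 members not called with the smallest p, and the gene of highest signal in each role. Members named outside this rule (such as Rgs4, Rgs5, Rgs7, Rgs8, Rgs11, Gng7, Gng12, Gngt2, Adcy8, Pde1c and Pde6d), and single genes of the pathway list, were chosen after their values were seen. A summed level is the log2 of the summed normalised intensities of a list. Alternatives were other background corrections, normalisations, detection filters, variance models, array weights, averaged probes, the processed table, the replicate number as a block, and each array left out. The procedure was tested on simulated data.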

Additional observations from a re-analysis of the deposited data

Results flagged for a closer look

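A single value stood apart from the rest of its group. The level of Gng4 in non-pregnant replicate 4 was 12.03 (log2 normalised intensity), while the other 3 non-pregnant arrays lay between 11.47 and 11.51. The gap to the nearest of them took 0.925 of the range of the group, above Dixon's critical share for 4 samples. Of 48 groups of arrays tested in this way over the named genes, 1 stood apart, and chance alone marks about 1 in 20.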

How the results depend on the processing

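Over 11 alternatives and 12 fits without 1 array, Rgs16 and Rgs2 were each called in 20. The count of genes called lower was 2, and 3 with no background correction, an offset of 50 or the processed table (Gnb3 added). It was 10 with array weights, and 5 genes were then called higher, while over the array 834 probes were lower and 742 higher. With trend and robust moderation 1 gene was called higher (Prkar2b) and 3 lower, beside 308 probes lower and 332 higher. Leaving out 1 array at a time gave 0 to 7 lower and 0 to 3 higher. With the replicate number as a block, over the 4 numbers shared by both groups, 0 were called lower, with Rgs16 at -0.56 (adjusted p = 0.197) and the called Rgs2 probe at -0.65 (adjusted p = 0.177). The deviations of same-numbered arrays correlated at 0.16, 0.06, 0.01 and 0.20, and 1 of the 4 numbers correlated best with its own, so the numbers were not taken as pairs. This block gave 86 probes higher and 41 lower over the array, in place of 227 and 204.

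Signs turned for Pde4dip with probes averaged (-0.052), and for Adcy6 with the block (0.049) and without pregnant replicate 6, non-pregnant replicate 2 or non-pregnant replicate 4 (range without 1 array -0.089 to 0.024). The cause of these shifts was not tested. A slide block was not run, since the table headers name no slide. With 4 non-pregnant arrays a missed call does not show equal levels, and probes near background hold only bounds.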

Other observations

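Several of these genes varied more among the 4 virgin females than among the 8 dams. The SD of the log2 level was 1.11 (n = 4) against 0.46 (n = 8) for Adcy8, 0.80 against 0.19 for Gng13, 0.55 against 0.18 for Rgs8, 0.50 against 0.15 for Pde12 and 0.47 against 0.15 for Gnat2. The genes were chosen after their values were seen, and the spread was not tested. The array at the edge differed between them: non-pregnant replicate 2 was highest for Gng13 and lowest for Adcy8 and Pde12, replicate 4 was lowest for Rgs8, and replicate 1 was lowest for Gnat2. Over all 67 measured genes the median SD was 0.21 in non-pregnant and 0.22 in pregnant females.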
